A study of Danio rerio with 4 samples.

Results

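The genes described are those of fibroblast growth factor (FGF) signalling and of the feedback on the mitogen-activated protein (MAP) kinase cascade. They were chosen by name: every gene whose symbol on the array platform begins with fgf, spred, dusp or spry and a digit, together with etv4, etv5a and etv5b. The array held 69 such genes of 14434 named genes, and 49 of them had signal high enough to be tested, of 11526 tested genes in all. Expression was measured in zebrafish hearts dissected by hand at 72 hours post fertilization (hpf), from embryos with the ccm2 m201 mutation and from wild-type (WT) embryos. There were 2 samples of each genotype, every one of them RNA pooled from embryo hearts and hybridised to its own single-colour Agilent array. The labels give no further allele or treatment, except that the description of both mutant samples mentions Bmp2b overexpression, which their titles and genotypes do not, and this is not settled here. The labels do not tell whether the pools stem from separate clutches, and the p-values therefore reflect the spread between these pools alone, which may be technical. Precision is limited by having 2 arrays in each group.

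FGF ligands bind receptor tyrosine kinases together with heparan sulfate. The receptors signal through Ras, Raf and MEK to the MAP kinase ERK, which in turn activates ETS transcription factors such as Etv4 and Etv5. ERK signalling also switches on its own inhibitors: Sprouty and Spred proteins act on the path from receptor to Raf, and dual specificity phosphatases (Dusp) remove the activating phosphates from MAP kinases. In zebrafish embryos etv4, etv5b, spry4 and dusp6 are widely used as transcriptional readouts of FGF signalling, and Fgf8 acts in the early heart field.

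Values are log2 processed signals, shifted so that the 75th percentile of each array lies at 7.49. On this scale a probe was well above background from 2.60 to 3.20 upward, depending on the array. A difference is the mean of the mutant arrays minus the mean of the WT arrays, and it passed the test when the Benjamini-Hochberg adjusted p of limma over all tested probes was under 0.05. In these bulk samples, fewer cells of a type and less RNA per cell cannot be told apart. The transcript of ccm2 itself had signals of 5.16 and 4.92 in mutants and 5.45 and 5.79 in WT, a difference of -0.58 ± 0.22 (SE) that did not pass (limma adjusted p = 0.167).

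Of the 49 tested genes, 11 fell and 3 rose in ccm2 mutant hearts, and 35 did not pass. That is 28.6%, against 17.1% of all tested genes. The genes were chosen by name, but with earlier results of these data known. Falls were found in 9.03% of all tested genes and rises in 8.1%. The genes that fell were the phosphatase genes dusp4 and dusp5, the Sprouty gene spry4, the ETS factor genes etv4 and etv5b, the ligand genes fgf17, fgf22 and fgf1b, the related gene fgf14, the FGF-binding protein gene fgfbp2b and fgfr1bl. Those that rose were fgf1a, fgf8b and dusp29. The median difference of the 49 genes was -0.45, against -0.04 over all tested genes. The mutant and WT arrays did not overlap for 37 of the 49 genes, with mutants higher in 10 and lower in 27. Among all tested genes the arrays did not overlap in 67.8%, with mutants higher in 32.6% and lower in 35.2%.

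The signal filter itself favours genes that are dim in one group: dusp3b, fgfbp2a and fgfbp2b passed it on WT arrays alone and fgf8b on mutant arrays alone. Of all tested genes that passed it on WT arrays alone 72.7% were called, and of those on mutant arrays alone 58.0%. Of the 45 genes that passed it on arrays of both groups, 10 fell and 2 rose, which is 26.7%, against 14.9% of all genes that passed it in that way. The calls rest on all 4 arrays. With any 1 array left out, limma called fewer genes, both among the 49 and over all tested genes. Each omission left 1 array in a group, whose spread was then taken to be that of the other group. The median difference of the 49 genes was -0.54 without WT replicate 1 and -0.48 without WT replicate 2. It was -0.41 without mutant replicate 1 and -0.46 without mutant replicate 2. Over all tested genes these medians were -0.01, -0.06, -0.05 and -0.01. With all arrays, 28 of the 49 genes had an unadjusted limma p under 0.05, as did 35.7% of all tested genes.

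**Figure D1:**
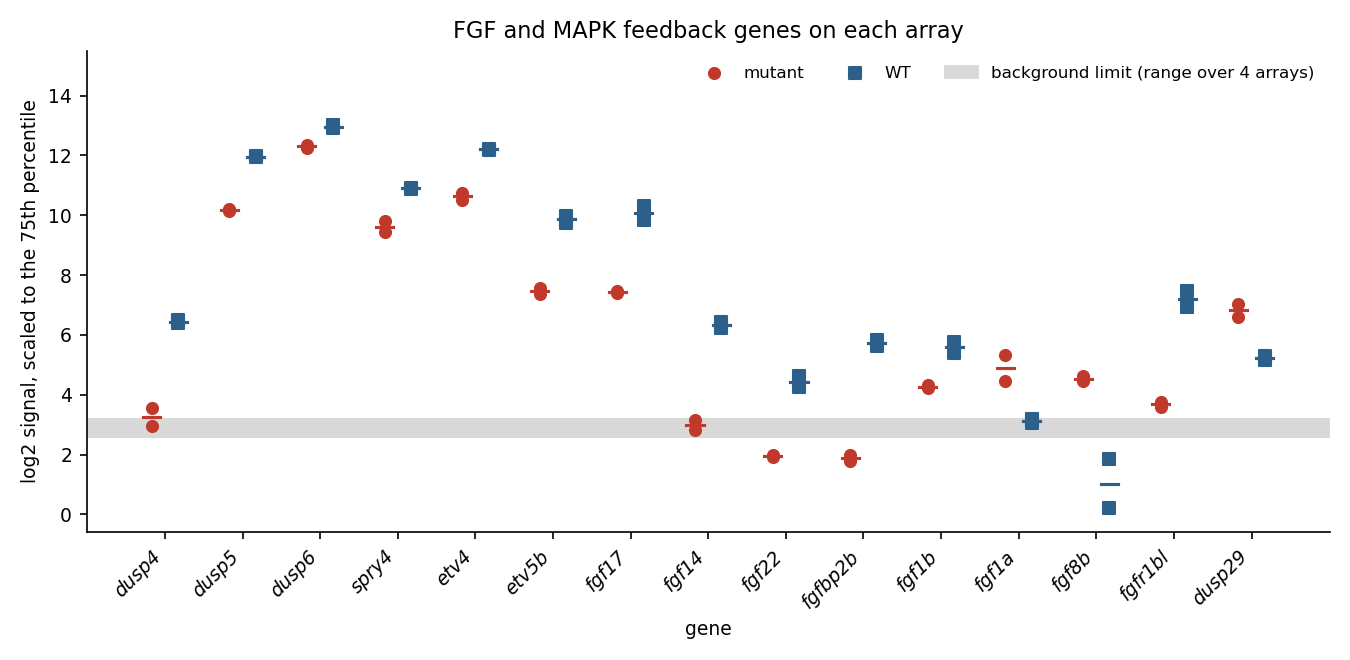
Log2 signal, scaled to the 75th percentile of each array, of the 14 genes that passed the test and of dusp6, on each of the 2 mutant arrays (circles) and 2 WT arrays (squares), with group means as lines. The grey band spans the background limits of the 4 arrays, from 2.60 to 3.20. All genes shown have groups that do not overlap, as do 67.8% of all tested genes, and the mutant arrays lie higher only for fgf1a, fgf8b and dusp29.

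The nuclear phosphatase genes dusp5 and dusp4 were both lower in mutants. dusp5, whose product acts on ERK, had signals of 10.20 and 10.13 in mutants and 11.94 and 11.97 in WT. dusp4, whose product acts on ERK and other MAP kinases, had 2.95 and 3.57 in mutants and 6.49 and 6.40 in WT. For both genes each WT array lay above each mutant array. The difference was -1.79 ± 0.17 (SE, limma adjusted p = 0.0127) for dusp5, a 3.45-fold lower signal. It was -3.19 ± 0.28 (SE, limma adjusted p = 0.0114) for dusp4, a 9.14-fold lower signal, with the mutant arrays just above background.

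dusp6, which encodes the cytoplasmic ERK phosphatase, had signals of 12.26 and 12.34 in mutants and 12.92 and 13.00 in WT. The groups did not overlap, but the difference of -0.66 ± 0.17 (SE, 95% interval -1.13 to -0.19) did not pass (limma adjusted p = 0.0788). Among the alternative settings it passed only with a stricter signal filter and with normexp background correction of the raw signal. These 2 settings called larger shares of all tested genes, 2039 of 7890 and 2968 of 11526, against 1975 of 11526. dusp2, a nuclear phosphatase gene, had 6.53 and 6.49 in mutants and 7.86 and 7.36 in WT, a difference of -1.10 ± 0.24 (SE, limma adjusted p = 0.0593), and it too passed under those settings. dusp7, which encodes another cytoplasmic ERK phosphatase, differed by -0.20 ± 0.19 (SE). dusp8a and dusp16, whose products act mainly on the stress kinases JNK and p38, differed by -0.38 and -0.24, and neither passed. The second dusp16 probe gave 0.32.

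One MAP kinase phosphatase gene lay on the other side. dusp1, a stress-inducible immediate early gene, had signals of 13.11 and 13.05 in mutants and 12.32 and 11.87 in WT. The groups did not overlap, and the difference of 0.98 ± 0.23 (SE, 95% interval 0.34 to 1.63) did not pass (limma adjusted p = 0.0657). It passed with median scaling, without scaling, with the stricter filter and with normexp. Of all tested genes, these settings called 1144, 1295, 996 and 1354 higher, against 934. The stricter filter tested 7890 genes and the others 11526. The second dusp1 probe gave 0.87.

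Among the atypical phosphatase genes, which lack the MAP kinase-binding region of the classical ones, dusp29 rose. It had 6.61 and 7.03 in mutants and 5.15 and 5.30 in WT, a 3.03-fold higher signal (difference 1.60 ± 0.23, SE, limma adjusted p = 0.0264). Its second probe gave 0.75 and was not called, and the mean of both probes did not pass. dusp23a, dusp14 and dusp23b differed by 0.85, 0.79 and 0.35, and dusp12, dusp22b and dusp22a by -0.68, -0.32 and -0.25, none of which passed. dusp23a passed with median scaling, without scaling, with the stricter filter and with normexp, and dusp14 without scaling. As given for dusp1, these settings called more of all tested genes higher. dusp27, which encodes an inactive phosphatase needed for muscle fibre assembly in zebrafish, had 13.18 and 12.98 in mutants and 13.44 and 13.34 in WT, a difference of -0.31 ± 0.18 (SE). dusp3b had 0.43 and 1.47 in mutants, too dim to stand above background, and 5.91 and 3.89 in WT. The groups did not overlap, and its at least 4.51-fold lower signal did not pass (limma adjusted p = 0.0526). Over all 17 tested phosphatase genes, 2 fell, 1 rose and 14 did not pass. The share called was 17.6%, near the 17.1% of all tested genes.

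Among all tested genes 9.03% fell, and of the 3 tested Sprouty and Spred genes spry4 did. Its signals were 9.80 and 9.45 in mutants and 10.92 and 10.89 in WT, a 2.43-fold lower signal (difference -1.28 ± 0.21, SE, limma adjusted p = 0.0326). Its 2 other probes gave -1.24, which was called, and -1.26, which was not. spry4 was no longer called when no signal filter was used. spry2 had 8.94 and 9.47 in mutants and 9.70 and 9.87 in WT, again with no overlap, but its difference of -0.58 ± 0.26 (SE) did not pass (limma adjusted p = 0.214). spred2a had 3.01 and 2.19 in mutants and 2.48 and 1.55 in WT. It was well above background on only 1 mutant array, and its groups overlapped.

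Of the 3 tested ETS factor genes, etv4 and etv5b fell and etv5a did not pass, while 9.03% of all tested genes fell. etv5b had signals of 7.38 and 7.55 in mutants and 9.74 and 9.99 in WT, and etv4 had 10.75 and 10.51 in mutants and 12.19 and 12.22 in WT. Both lay lower on each mutant array than on either WT array. The signal was 5.28-fold lower for etv5b (difference -2.40 ± 0.20, SE, limma adjusted p = 0.0108) and 2.97-fold lower for etv4 (difference -1.57 ± 0.19, SE, limma adjusted p = 0.0186). The second etv5b probe gave -2.89 and was also called. etv5a, the paralog of etv5b, had 7.71 and 7.28 in mutants and 7.61 and 7.57 in WT. These groups overlapped, and the difference was -0.10 ± 0.23 (SE, 95% interval -0.73 to 0.54), and its sign was positive under median scaling and without scaling. Whether the paralogs differ in their response was not tested.

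**Figure D2:**
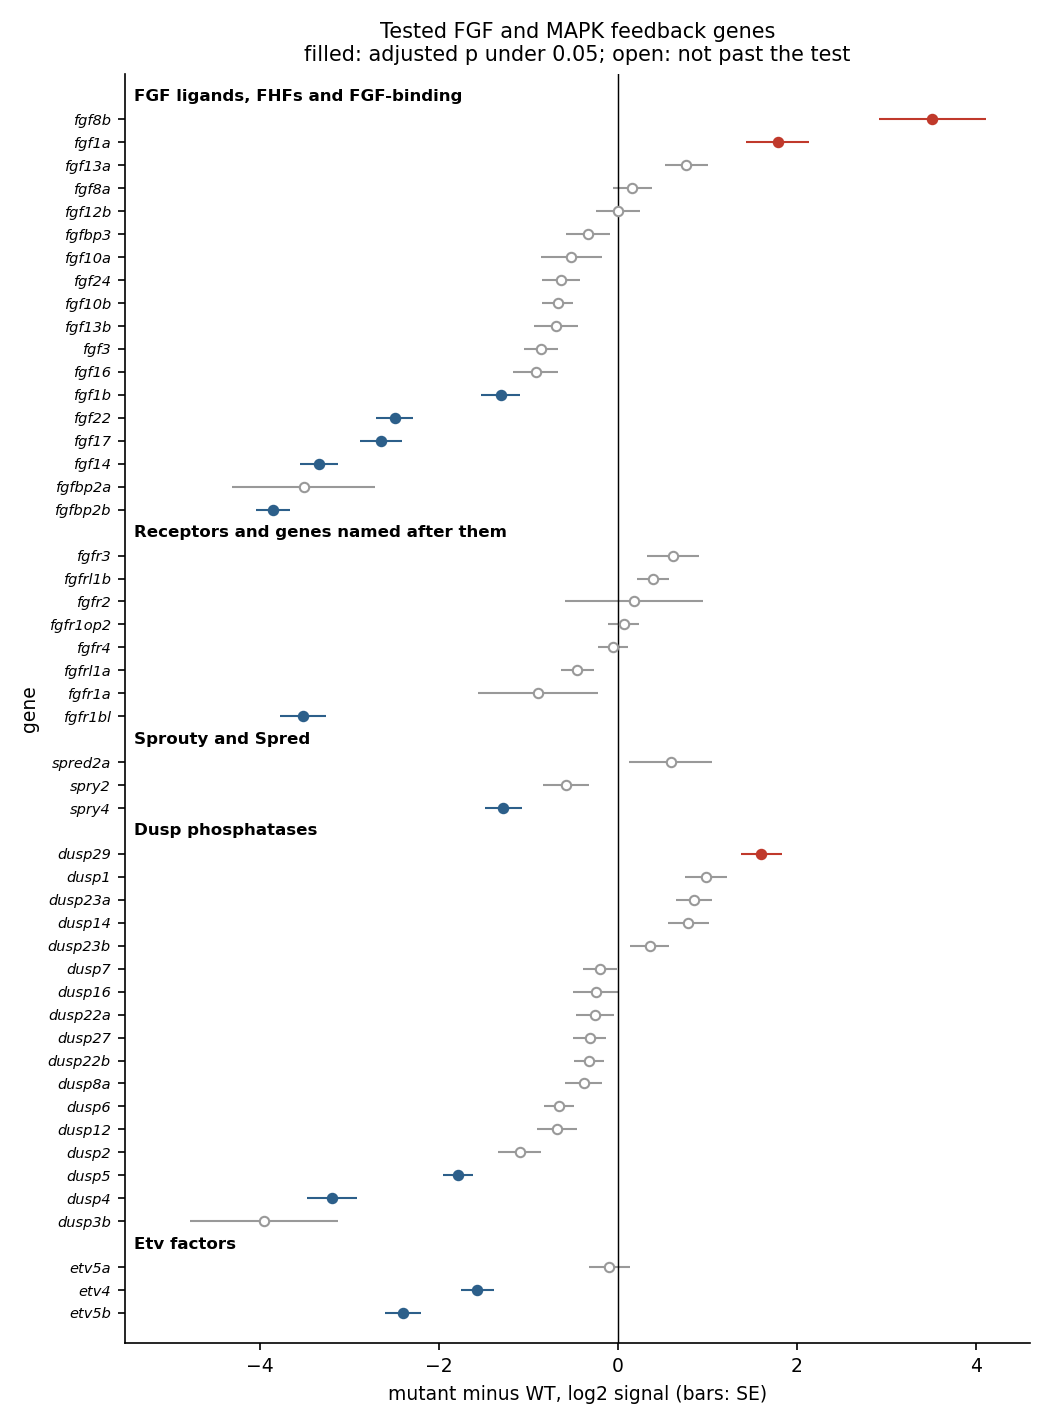
Difference in log2 signal, mutant minus WT, of the 49 tested genes in 5 groups by role, with the SE from limma as bars. Filled points passed the test (blue fell, red rose) and open points did not. In the Etv group etv5b and etv4 lie at -2.40 and -1.57 and etv5a at -0.10.

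Of 32 genes for FGF ligands, intracellular FGF-related factors and FGF-binding proteins, 18 were tested, of which 5 fell, 2 rose and 11 did not pass. The share called was 38.9%, against 17.1% of all tested genes. It includes fgfbp2b and fgf8b, which passed the signal filter in a single group. The subfamily of Fgf8, Fgf17, Fgf18 and Fgf24 had 4 tested members. fgf17 had signals of 7.48 and 7.40 in mutants and 9.85 and 10.32 in WT, a 6.26-fold lower signal (difference -2.65 ± 0.24, SE, limma adjusted p = 0.0118). Its second probe gave -2.93 and was called. fgf8a had 7.41 and 7.82 in mutants and 7.44 and 7.47 in WT, with overlapping groups and a difference of 0.16 ± 0.22 (SE, 95% interval -0.45 to 0.77). Its 2 other probes gave -0.06 and -0.26, so no direction is given. fgf8b, the paralog of fgf8a, had 4.46 and 4.62 in mutants and 1.84 and 0.22 in WT, where it did not stand above background. That is an at least 2.93-fold higher signal (limma adjusted p = 0.0361), in a gene that passed the signal filter on mutant arrays alone. The call was lost without a signal filter and with normexp. The second fgf8b probe lay below background on all arrays. fgf24, which acts in pectoral fin initiation in zebrafish, differed by -0.64 ± 0.21 (SE) and did not pass.

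In the subfamily of Fgf3, Fgf7, Fgf10 and Fgf22, the tested genes were fgf22, fgf3, fgf10b and fgf10a. Only fgf22 passed, while 17.1% of all tested genes were called. The differences of these genes all lay below 0, as did those of 34 of the 49 tested FGF and feedback genes. fgf22 had 1.90 and 1.98 in mutants, which is not well above background, and 4.26 and 4.62 in WT, an at least 3.27-fold lower signal (limma adjusted p = 0.0111). fgf3, which patterns the pharynx and hindbrain in zebrafish, had 8.36 and 8.54 in mutants and 9.22 and 9.40 in WT. Its groups did not overlap, and its difference of -0.86 ± 0.19 (SE) did not pass (limma adjusted p = 0.0583), although it passed with the stricter filter and with normexp. fgf10b differed by -0.67 ± 0.17 (SE, limma adjusted p = 0.0792), which passed with the stricter filter, and fgf10a by -0.52 ± 0.34 (SE). fgf7 was too dim to be tested.

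The paralogs fgf1a and fgf1b, which encode ligands of broad receptor specificity, moved in opposite directions. fgf1a had 5.33 and 4.45 in mutants and 3.17 and 3.04 in WT, with a single WT array above the background limit. Its difference was 1.78 ± 0.35 (SE, limma adjusted p = 0.0478), close to the threshold, and its second probe gave 2.45 and was not called. fgf1b had 4.22 and 4.32 in mutants and 5.39 and 5.78 in WT, a 2.48-fold lower signal (difference -1.31 ± 0.22, SE, limma adjusted p = 0.0343). The fgf1b call was lost with median scaling and without scaling, and both calls were lost without a signal filter. The fgf1a call was also lost with normexp.

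The genes fgf12b, fgf13a, fgf13b and fgf14 encode intracellular FGF homologous factors. In mammals these bind voltage-gated sodium channels. fgf14 had 2.82 and 3.15 in mutants and 6.22 and 6.43 in WT, a 10.1-fold lower signal (difference -3.34 ± 0.22, SE, limma adjusted p = 0.00862), and a single mutant array exceeded the background limit. fgf13a had 8.61 and 8.13 in mutants and 7.68 and 7.52 in WT. Its groups did not overlap, and the difference of 0.77 ± 0.24 (SE) did not pass (limma adjusted p = 0.118). fgf13b differed by -0.69 ± 0.24 (SE) and fgf12b by 0.001 ± 0.24 (SE), and neither passed.

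FGF-binding proteins are secreted carriers that release FGFs from the matrix. fgfbp2b had 1.98 and 1.79 in mutants, below background, and 5.83 and 5.64 in WT, an at least 8.05-fold lower signal (limma adjusted p = 0.00729). fgfbp2b passed the signal filter on WT arrays alone, as did 275 tested genes in all, of which 72.7% were called. Its paralog fgfbp2a had 0.33 and 0.06 in mutants and 4.80 and 2.61 in WT, and a single WT array exceeded the background limit. It was not called (limma adjusted p = 0.0621). fgfbp3 differed by -0.33 ± 0.24 (SE) with overlapping groups. fgf16, a ligand gene of the Fgf9 subfamily, had 2.27 and 1.84 in mutants, below background, and 3.14 and 2.80 in WT. A single WT array exceeded the background limit, and fgf16 did not pass (limma adjusted p = 0.0913).

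Of the 8 tested receptor genes and genes named after receptors, 1 fell, 0 rose and 7 did not pass by limma. Calls thus made up 12.5%, against 17.1% of all tested genes. fgfr4 had signals of 12.43 and 12.29 in mutants and 12.40 and 12.43 in WT. These overlapped, with a difference of -0.05 ± 0.17 (SE, 95% interval -0.53 to 0.43) that was above 0 under median scaling and without scaling. fgfr3 had 10.92 and 10.25 in mutants and 10.04 and 9.90 in WT, a difference of 0.62 ± 0.29 (SE, limma adjusted p = 0.238), and its second probe gave 0.69. The mutant arrays of fgfr2 lay far apart at 11.18 and 9.07, on both sides of the WT values of 9.87 and 10.02. Its difference was 0.18 ± 0.77 (SE), and it was -0.87 without mutant replicate 1. The second fgfr2 probe gave -0.56 and was not called. fgfr1a had 3.40 and 1.58 in mutants and 3.50 and 3.27 in WT, with overlapping groups, and a single mutant array exceeded the background limit.

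fgfrl1a and fgfrl1b encode receptor-like proteins without a kinase domain. fgfrl1a had 10.16 and 10.32 in mutants and 10.61 and 10.78 in WT, and fgfrl1b differed the other way. Their differences of -0.45 ± 0.19 (SE) and 0.40 ± 0.18 (SE) did not pass. fgfr1bl, named after the receptor gene fgfr1b, had 3.60 and 3.77 in mutants and 6.94 and 7.47 in WT, an 11.5-fold lower signal (difference -3.52 ± 0.26, SE, limma adjusted p = 0.00951). The 3 probes of fgfr1b itself lay below background on all arrays. fgfr1op2, whose product is not a receptor despite its name, had 11.13 and 11.20 in mutants and 11.16 and 11.03 in WT.

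The 20 genes that were not tested comprised 14 genes for ligands and intracellular FGF homologous factors (fgf2, fgf4, fgf5, fgf6a, fgf6b, fgf7, fgf11a, fgf12a, fgf18b, fgf19, fgf20a, fgf20b, fgf21 and fgf23, of which fgf11a and fgf12a are such factors), dusp11, dusp13a, dusp19a, dusp19b, fgfr1b and spred3. Of these, 18 were well above background on none of the 4 arrays. fgf6a was well above it on mutant replicate 2 alone, at 5.18, against 0.40 on mutant replicate 1 and 0.82 and 0.33 in WT. dusp13a had 0.56 and 0.46 in mutants and 3.36 and 0.57 in WT, and was well above it on WT replicate 1 alone. Of the 18 tested genes with several tested probes, all probes had one sign in 14, and the exceptions were dusp16, fgf8a, fgfr2 and fgfr4.

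Other genes of the pathway were taken from lists by role, which were also chosen with earlier results of these data known. Their counts stand beside 17.1% of all tested genes called, 8.1% higher and 9.03% lower. Among 20 tested genes for receptor partners and heparan sulfate, 1 rose and 1 fell, and these were paralogs. anos1b, which encodes an anosmin, a matrix protein that binds FGF receptors and heparan sulfate, had 10.36 and 10.33 in mutants and 6.51 and 6.44 in WT, a 14.7-fold higher signal (difference 3.87 ± 0.17, SE, limma adjusted p = 0.00719). anos1a had 0.97 and 0.69 in mutants, below background, and 4.64 and 4.03 in WT, an at least 3.05-fold lower signal (limma adjusted p = 0.0109). It passed the signal filter on WT arrays alone, and 72.7% of all tested genes that did so were called. il17rd, which encodes the feedback inhibitor Sef and was singled out after its values were seen, had 3.83 and 4.81 in mutants and 5.27 and 5.40 in WT, and its difference of -1.01 ± 0.39 (SE) did not pass (limma adjusted p = 0.165).

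Of 23 tested genes for adaptors and the Ras to ERK cascade, limma called 0, with 6 at an unadjusted p under 0.05. Of all tested genes, 35.7% had an unadjusted p under 0.05. Their median difference was 0.39, against -0.04 over all tested genes. mapk3, which encodes ERK1 and was also chosen after its values were seen, had 9.69 and 8.84 in mutants and 7.49 and 7.63 in WT, a difference of 1.70 ± 0.35 (SE, limma adjusted p = 0.0508). Of 11 tested stress MAP kinase genes, 2 rose and 0 fell by limma, with 3 at an unadjusted p under 0.05. The share called was 18.2%, near the 17.1% of all tested genes. The genes that rose both encode p38 kinases: mapk12b had 6.85 and 6.29 in mutants and 2.71 and 2.72 in WT, which is below background, so that its signal was at least 11.9-fold higher, and mapk11 differed by 1.81 ± 0.21 (SE, limma adjusted p = 0.0180). Of the other tested p38 genes, mapk12a differed by 1.18 and mapk14a and mapk14b by -0.15 and -0.54, and none passed. mapk12a was below background on both WT arrays.

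The 23 tested immediate early and other ERK response genes were split, with 4 higher, 4 lower and 15 not past the test. Of all tested genes, 8.1% were higher and 9.03% lower. egr3, an immediate early zinc finger gene, had 3.44 and 4.05 in mutants and 9.13 and 9.27 in WT, a 43.9-fold lower signal (difference -5.46 ± 0.28, SE, limma adjusted p = 0.00729). phlda1 had 0.87 and 0.55 in mutants, below background, and 5.67 and 5.47 in WT, an at least 7.16-fold lower signal. It passed the signal filter on WT arrays alone. Of all 275 tested genes that did so, 200 were called lower and 0 higher. egr1, related to egr3, differed by -3.51 ± 0.27 (SE, limma adjusted p = 0.00971). The rises were led by fosl2, which encodes an AP-1 subunit, with 10.44 and 10.26 in mutants and 6.67 and 6.65 in WT (difference 3.69 ± 0.18, SE, limma adjusted p = 0.00729). rasgef1ba differed by 1.56 ± 0.25 (SE) and mcl1a, a survival gene of the Bcl2 family, by 1.27 ± 0.17 (SE), and both passed. fosab, a zebrafish c-fos gene singled out in the same way as mapk3, had 13.27 and 12.94 in mutants and 13.62 and 12.30 in WT, so that the WT arrays spanned the mutant ones. WT replicate 1 also exceeded WT replicate 2 for junba (13.25 and 12.01), junbb (12.89 and 11.58) and fosb (10.65 and 9.16). The order was the same for egr1 (13.02 and 12.50), ets1 (9.52 and 8.21) and egr2a. Both WT values of egr1 lay above its mutant values of 9.11 and 9.39. WT replicate 1 did not exceed WT replicate 2 for egr3 (9.13 and 9.27) or myca (8.41 and 8.45). Of these genes, junba, junbb, fosb, ets1, egr2a and myca were likewise singled out after their values were seen.

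**Figure D3:**
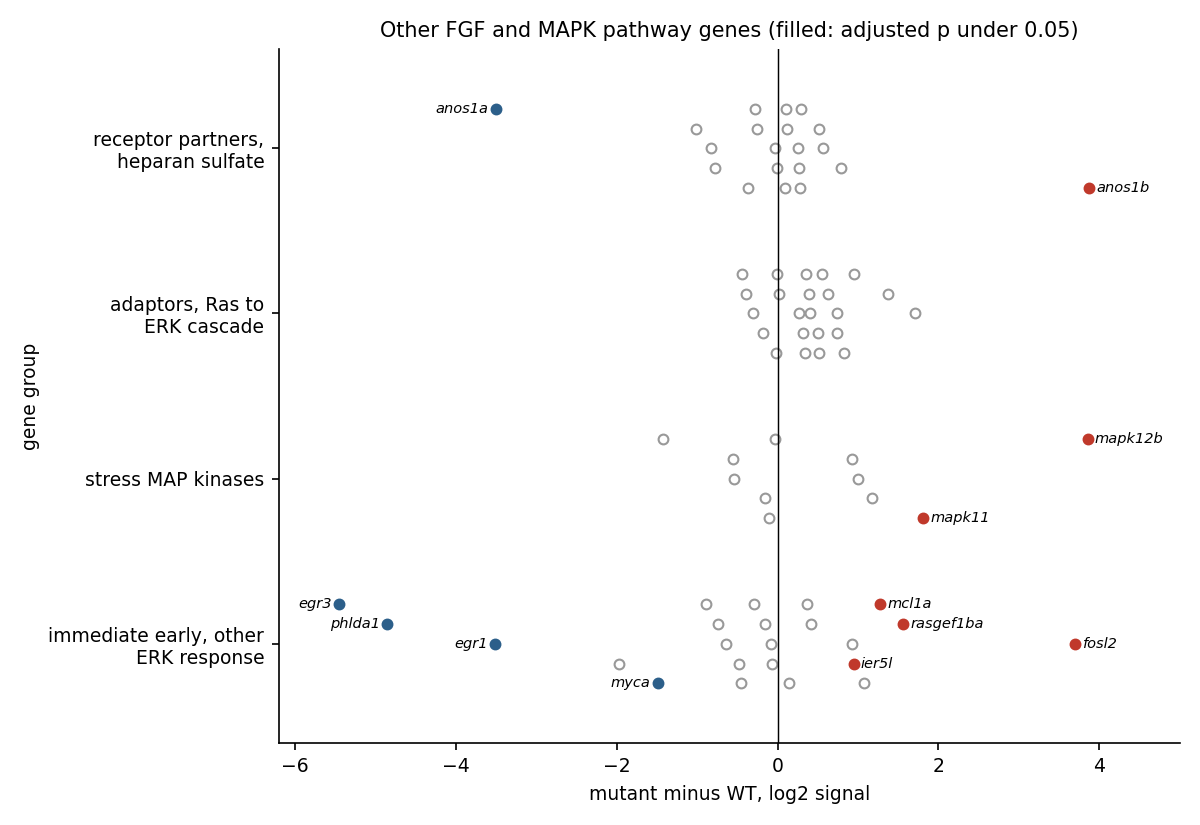
Difference in log2 signal, mutant minus WT, of other tested genes of the FGF and MAP kinase pathways, in 4 groups by role. Filled and named points passed the test (blue fell, red rose). The group of adaptors and the Ras to ERK cascade has none, while egr3 at -5.46 and anos1b at 3.87 lie farthest to either side.

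Markers of other cell types differed between the groups as well. Beside the counts below, 9.03% of all tested genes fell and 8.1% rose. The marker lists, too, were chosen with earlier results of these data known. Of 9 cartilage and pharynx markers on the array only 4 had signal high enough to be tested. These 4 all fell, with a summed linear signal of 107 to 109 in mutants and 2858 to 3034 in WT, and dlx2a was below background on all arrays. Of 12 tested neural, retinal and lens markers, 8 fell and 1 rose, with sums of 1469 to 1612 in mutants and 4126 to 8237 in WT, and crx, gad1b and elavl3 were below background in mutants. Smooth muscle markers had 3 of 6 lower (sums 13099 to 14512 in mutants, 27686 to 29360 in WT) and red blood cell markers 8 of 11 lower and 1 higher (12745 to 15654 in mutants, 93963 to 106238 in WT). Among the markers that fell, dlx2a, crx, elavl3, gata1a and tfr1a passed the signal filter on WT arrays alone. Of all 275 tested genes that did so, 200 were called lower and 0 higher. Endothelial and endocardial markers had 6 of 12 higher (88929 to 105827 in mutants, 37631 to 38151 in WT) and leukocyte markers 8 of 10 higher (4271 to 4298 in mutants, 1128 to 1312 in WT). The brightest endothelial marker in mutants was aqp8a.1, at log2 15.36 and 15.12, against 11.83 and 11.68 in WT. In the same list nfatc1, has2 and erg differed by -0.94, -0.39 and -0.24, and none of these passed. Of 12 tested cardiomyocyte markers, 2 fell, nkx2.5 and ldb3a, and 10 did not pass, with sums of 186612 to 244722 in mutants and 224616 to 246298 in WT. Among 8 tested epicardial and fibroblast markers 2 rose and 1 fell, and among 8 of skeletal muscle 1 rose and 2 fell. The part of any of these cell types in the differences of the FGF and feedback genes was not tested.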

How the data were processed

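The authors deposited processed signals (intensity) from Agilent Feature Extraction, version 10.5.1.1. Per the file headers, background was subtracted, each array was detrended and dim spots received surrogate values, and the tables hold no control spots. They were not scaled between arrays, since the 75th percentile of each column matched its header. A deposited table of raw median intensity served 1 alternative, and the deposited headers, whose values are other quality statistics, gave the number of features well above background (54.0% to 55.9% of 43803), with 0 saturated. A feature counted as well above background when its rank lay within that number. For "at least" folds, signals of the dimmer group below that limit were raised to it, array by array, before its mean was set against that of the other group.

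Log2 signals were shifted to a common 75th percentile and spots of 1 probe averaged. The platform annotation names 21061 features with 1 gene, 0 with several and 22742 with none. Symbols were updated through RefSeq for 20541 of them. Probes above the 40th percentile of the array on at least 2 of 4 arrays were tested (26831) with limma 3.58.1 in R 4.3.3 (two-sided, residual df 2, prior df 1.97). A gene is its brightest tested probe. The fit was tested on simulated data. Genes given array by array are those that passed, the 3 brightest of each role, and those with non-overlapping arrays and a log2 difference of at least 1 in size. fgf8a, fgf16, fgfr1a, fgfr2, fgfr3 and untested dusp13a and fgf6a were added after their values were seen. Of other pathway genes, up to 3 passing rises and falls per list are given. Members and lists were chosen with earlier results of these data known. No coordinates are given, because the array was designed on an older genome build than that of the annotation used. Same-numbered arrays were checked for pairing: their deviations from the group means correlated at 0.0708 across all tested probes. The 12 alternatives covered scaling, filter, background, probe averaging, a replicate block and left-out arrays. Figures were drawn with matplotlib 3.10.9.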

Additional observations from a re-analysis of the deposited data

How the results depend on the processing

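The count of calls varied with the settings. The stricter filter tested 5 of the 14 called members of the FGF and feedback group. The members higher in mutants numbered 5 with median scaling, 6 without scaling between arrays, 1 without a filter and 0 with the replicate block, against 3, and the members lower numbered 8 with the replicate block, against 11. With an array left out, 0 to 1 members were higher and 0 to 6 lower, the other pathway genes had 0 to 3 higher and 0 to 4 lower, and all genes had 0 to 261 higher and 0 to 306 lower. The other pathway genes higher in mutants numbered 4 without a filter, 12 with the stricter filter, 14 with normexp and 4 with the replicate block, against 7. Over all genes, 511 were higher and 607 lower without a filter, 399 and 475 with the replicate block, and 1354 and 1614 with normexp, against 934 and 1041, and the cause of these shifts was not tested. With median scaling 1144 genes were higher and 809 lower, and without scaling 1295 and 770, which moved the median difference of all genes to 0.12 and 0.17, against -0.04. The labels give same-numbered samples nothing in common beyond the number. Across all tested probes, the deviations of such arrays from their group means correlated at only 0.0708, so the replicate block is given here alone.

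Signs turned for some genes that did not pass. With a single setting changed, the differences were 0.040 for dusp16, -0.052 for fgf8a, -0.19 for fgfr2 and 0.14 for fgfr4 with the mean over probes, 0.059 for etv5a and 0.10 for fgfr4 with median scaling, 0.017 for dusp7, 0.12 for etv5a and 0.16 for fgfr4 without scaling, and -0.12 for fgf12b and -0.11 for spred2a with normexp. With an array left out, the difference ranged from -0.51 to 0.025 for dusp16, -0.32 to 0.12 for etv5a, -0.24 to 0.24 for fgf12b, -0.040 to 0.36 for fgf8a, -1.80 to 0.014 for fgfr1a, -0.87 to 1.23 for fgfr2 and -0.12 to 0.014 for fgfr4.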
